A study of Penicillium oxalicum with 6 samples.

Results

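Of 9834 genes of the filamentous fungus Penicillium oxalicum, 139 were abundant and varied by no more than 1.5-fold over 6 RNA sequencing libraries of its mycelium. They were chosen from the measured values: FPKM (fragments scaled to the length of the gene and the depth of the library) had to reach 300 in each library, and the highest of the 6 values could be at most 1.5 times the lowest. Level and ratio are therefore given below as descriptions, with no test. The genes are called stable only in the sense of that limit: many of them still differed between the groups, as described below, and 117 of the 139 also met the rule after rescaling to TPM (FPKM divided by its library sum). Another 239 genes reached 300 FPKM in each library but varied by more than 1.5-fold, and serve as the nearest comparison.

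The 6 sample labels name the strain MuKu70, a mutant of Ku70, in all libraries. In all 6, the mycelium came from plates kept at 28 °C for 6 days. About 1 g of mycelium was moved to 100 mL of liquid medium with 1% Avicel (3 libraries) or 1% wheat bran (3 libraries). By the labels, it was kept there for 4 hours, with shaking at 180 rpm. Avicel is microcrystalline cellulose, and wheat bran is a mixed plant material with hemicellulose, starch and protein. Ku70 is a protein of DNA end joining, and fungal strains that lack it are used as parents for targeted gene deletions. The series title names another design, a deletion mutant of POX07277 after 24 hours in Avicel. The names under which the 6 libraries were deposited disagree with the sample labels too. POX07277 had 427, 375 and 331 expected counts in replicates F, S and T of the group labelled Avicel and 0 in each library labelled wheat bran, so the true difference between the groups is not settled by the labels. Whether they differ in carbon source, in strain or in both was not tested. The groups are called here by their sample labels alone. Expected counts, which are estimated numbers of fragments, summed to 13176152 to 14598919 per library. Whether the replicates of a group are separate cultures is not stated, so their spread may be technical.

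In a fungal cell a small number of genes supplies a large part of the messenger RNA. The machinery of protein synthesis, central energy metabolism, chromatin and the cytoskeleton is generally read strongly under most conditions, while genes of secreted enzymes such as cellulases are switched by the carbon source. Genes with steady levels are of practical use as references against which other genes are measured. The deposited tables give gene IDs with no names, and 0 of the 9834 IDs matched the RefSeq annotation of the species, so which of these functions the 139 genes have was not analysed here.

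The 139 genes are 1.41% of all genes, and 36.8% of the 378 genes with at least 300 FPKM in each library. The share of genes whose highest FPKM was within 1.5 times the lowest was also counted at lower levels. It was 46.5% of the 2834 genes whose lowest FPKM was 10 to 30, 53.8% of the 2274 at 30 to 100, and 55.8% of the 738 at 100 to 300. Above 300 it was 38.2% of 136 genes with a lowest FPKM of 300 to 500, 33.3% of 156 at 500 to 1000, 44.6% of 56 at 1000 to 2000, and 33.3% of 30 at 2000 or more. These shares describe the rule and were not tested. The median ratio of highest to lowest FPKM was 1.68 over all 378 abundant genes and 1.29 over the 139.

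**Figure D1:**
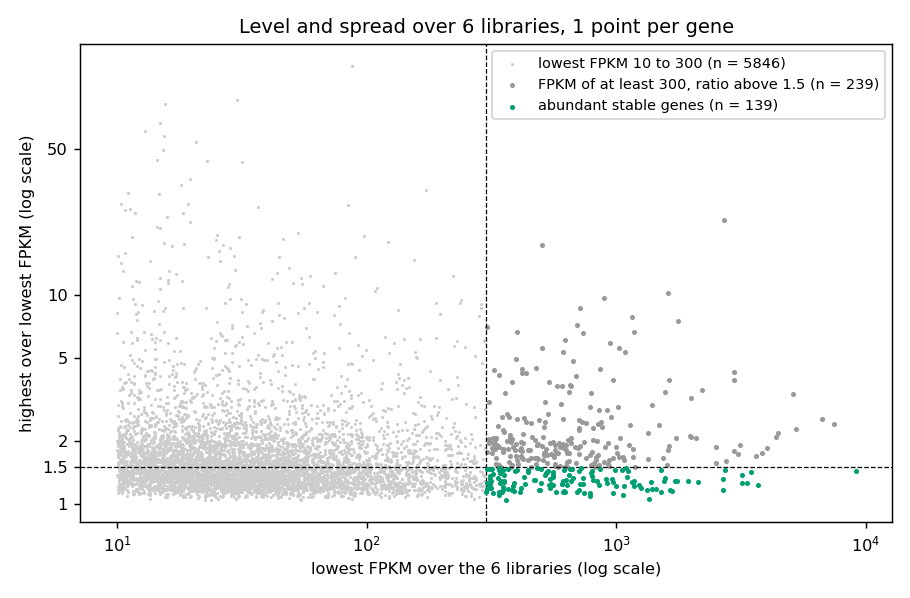
Each point is 1 gene with a lowest FPKM of at least 10, by its lowest FPKM over the 6 libraries (x axis, log scale) and the ratio of its highest to its lowest FPKM (y axis, log scale), with dashed lines at 300 FPKM and a ratio of 1.5. The 139 abundant stable genes fill the lower right field up to a lowest FPKM of 9078, and the 239 other abundant genes lie above them.

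Genes lay close to each limit on both sides. The ratio was above 1.4 in 35 members, and 31 other abundant genes had a ratio above 1.5 and up to 1.6. The nearest gene outside was POX06394, with a ratio of 1.5006. The lowest FPKM was under 310 in 5 members, and 5 genes with a ratio of at most 1.5 had a lowest FPKM of 290 to 300. Nearest outside on that side was POX09665, which fell to 296 FPKM in replicate S labelled Avicel. Both of these genes stand next to members in the ID order, described below.

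The ratio of highest to lowest FPKM was at most 1.1 in 3 members, 1.1 to 1.2 in 34, 1.2 to 1.3 in 44, 1.3 to 1.4 in 23, and 1.4 to 1.5 in 35. The steadiest gene was POX04611. Its FPKM in replicates F, S and T was 376, 371 and 379 in the libraries labelled Avicel and 362, 362 and 369 in the group labelled wheat bran. Each library labelled wheat bran lay below each labelled Avicel, yet the highest value was only 1.05 times the lowest. POX06677, picked with its values in view, followed with a ratio of 1.06. It is more abundant, at 1442, 1409 and 1425 FPKM labelled Avicel and 1356, 1423 and 1444 labelled wheat bran. In that gene the groups overlapped.

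At the other end stood POX07865, with a ratio of 1.496. Its FPKM was 505, 338 and 411 in replicates F, S and T of the group labelled Avicel and 340, 457 and 349 in the group labelled wheat bran. The groups overlapped, and this whole range was spanned inside the Avicel group, between replicates F and S. Most members varied less than that within a group: the larger of their within-group ratios had a median of 1.13 and was above 1.3 in 7 members. The median was 1.26 in the other abundant genes and 1.27 over all tested genes. The rule itself bounds this ratio at 1.5 in the members, so their lower median describes the choice of genes and supports nothing.

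The most abundant member was POX02073. Its FPKM was 9966, 9383 and 9078 in replicates F, S and T of the group labelled Avicel and 11950.2, 13110.5 and 13118 in the group labelled wheat bran. All wheat bran values lay above all Avicel values, by group means of 9476 ± 451 and 12726 ± 672 FPKM (SD, n = 3 each). It stood apart from the other members in level. POX06036, the next, had 4263, 4956 and 4108 FPKM labelled Avicel and 4264, 3456 and 4201 labelled wheat bran, and its groups overlapped. The least abundant member by mean was POX01032, at 346, 326 and 317 FPKM labelled Avicel and 301, 310 and 333 labelled wheat bran, again with overlap. From that gene to POX02073 the mean FPKM spanned 34.5-fold, with a median of 687.

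By mean FPKM, 43 members stood at 300 to 500, 53 at 500 to 1000, 31 at 1000 to 2000 and 12 at 2000 or more. Among those 12, POX02286 had 4559, 3680 and 4158 FPKM in replicates F, S and T of the group labelled Avicel and 4104, 4554 and 3910.1 in the group labelled wheat bran. POX00665 had 3176, 4036 and 3933 against 3624, 3992 and 3264. In both genes the spread lay within the groups rather than between them. POX03083 had 2713, 2669 and 3097 FPKM labelled Avicel and 3079, 3106 and 3105 labelled wheat bran, where the latter group was tight (SD 15.6) and the former was not (SD 236). These 3 genes were picked with their values in view.

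**Figure D2:**
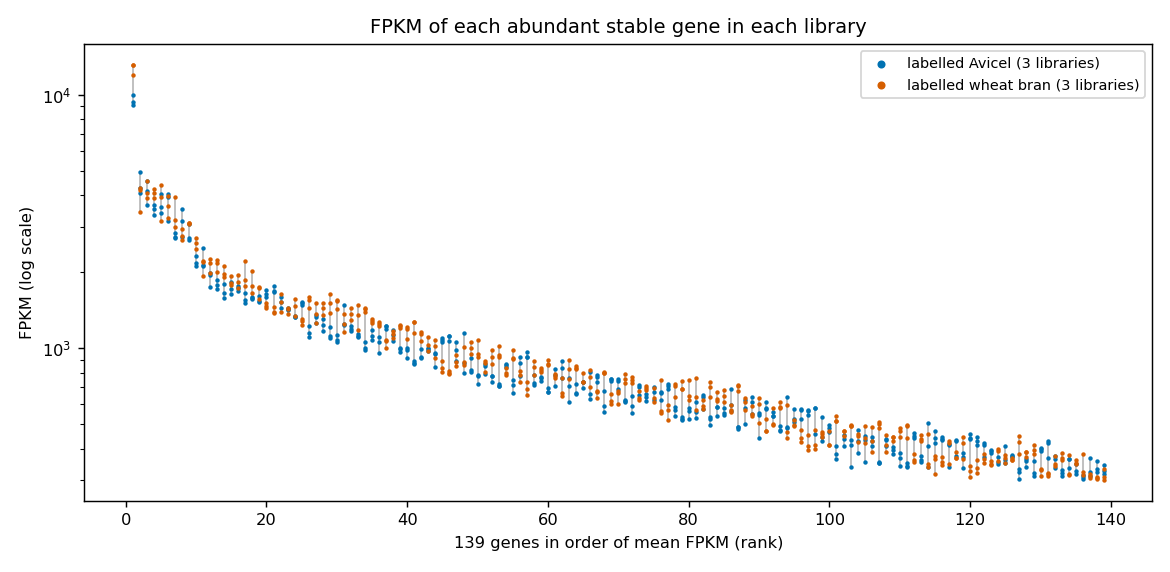
FPKM (y axis, log scale) of each of the 139 genes in each of the 6 libraries, with genes in order of mean FPKM (x axis); blue points are the 3 libraries labelled Avicel, orange points the 3 labelled wheat bran, and grey lines run from the lowest to the highest value. POX02073 stands alone at the left between 9078 and 13118 FPKM, and most other genes lie between 300 and 2000.

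The differences that remained within the limit were spread over the libraries unevenly on the FPKM scale. Replicate F labelled Avicel gave the lowest value of 34 members and the highest of 27, and replicate T labelled wheat bran gave the highest of 45 and the lowest of 21. Replicate S labelled wheat bran was the lowest in only 7. By group, the lowest value came from a library labelled Avicel in 86 members and from one labelled wheat bran in 53. The median member stood at 0.963 to 0.969 times its own mean in the libraries labelled Avicel and at 1.01 to 1.05 times in the group labelled wheat bran.

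The FPKM of the groups did not overlap in 82 of the 139 genes (59.0%), with 26 higher in the libraries labelled Avicel and 56 higher in the group labelled wheat bran. Of all 8636 genes tested, 63.8% did not overlap, 2753 higher in the former and 2757 in the latter. After rescaling to TPM, an alternative added with the values in view, the balance turned: 79 members did not overlap, 53 higher in the libraries labelled Avicel and 26 in the group labelled wheat bran. Of all tested genes 65.8% then did not overlap, 3712 and 1970 in the same order. Overlap of single genes is given on FPKM throughout. The group means were within 1.1-fold in 52 members and within 1.2-fold in 90. The largest difference toward wheat bran was that of POX04334, at 487, 479 and 488 FPKM in replicates F, S and T of the group labelled Avicel and 707, 679 and 716 in the group labelled wheat bran (log2 difference -0.53). The largest toward Avicel was that of POX05882, at 1116, 1064 and 1120 FPKM against 794, 810.02 and 793 (log2 difference 0.46). Both genes had replicates close together and groups clearly apart, although each met the limit of 1.5. Both were picked with their values in view.

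The comparison of the groups over the whole table was edgeR's quasi-likelihood test with Benjamini-Hochberg adjustment at a threshold of 0.05. It called 4746 of 8636 genes (55%), 27.5% in each direction. Among the 139 it called 50, of which 18 were higher in the libraries labelled Avicel and 32 lower. These counts describe the genes and support nothing, since the same libraries chose them. With libraries scaled to the summed counts of the 139 genes themselves, 25 of 47 calls among them were higher. Over all 8636 tested genes, 4735 were then called, 2797 higher and 1938 lower. This scaling evens out the members' summed counts by construction, and their median log2 fold change was then -0.0026. Without replicate S labelled Avicel, 30 members were called, and 4049 of 8698 tested genes. The largest log2 fold change of a called member was 0.53 in size.

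Which group was higher on balance depended on the scale. On FPKM the median log2 difference, Avicel minus wheat bran, was -0.09 over the members and 0.01 over all tested genes, with 57 members higher in the group labelled Avicel and 82 in the other. Summed FPKM differed between the groups, at 948844 to 955184 in the libraries labelled Avicel and 1059920 to 1076858 in the group labelled wheat bran. Rescaling each library to TPM therefore raised the median of all tested genes by 0.17 on the log2 scale. The median of the members then turned to 0.07, with 85 members higher in the group labelled Avicel and 54 in the other. Relative to the median of all tested genes, the members stood 0.10 lower in the Avicel group (log2 value -0.10).

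Together the 139 genes held 8.84%, 8.85% and 8.73% of the expected counts in replicates F, S and T of the group labelled Avicel and 9.19%, 9.47% and 9.53% in the group labelled wheat bran. The group means were 8.81% ± 0.07 and 9.40% ± 0.18 (SD, n = 3 each), and the groups did not overlap. Per length the order was the reverse: their share of summed FPKM was 14.5% ± 0.13 labelled Avicel and 13.9% ± 0.24 labelled wheat bran (SD, n = 3 each). The 239 other abundant genes held more on either scale, 33.8% ± 0.35 and 34.0% ± 0.67 of counts (SD, n = 3 each). All 378 abundant genes held 42.1% to 44.2% of the counts of a library. The set and its share depend on the libraries used, most on replicate F labelled Avicel. Without it, 174 genes met the rule on 5 libraries, and they held 14.5% of counts. This larger set includes all 139 genes, since leaving out a library can only add genes. Leaving out each other library in turn gave 143 to 161 genes with 9.59% to 10.4% of counts.

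**Figure D3:**
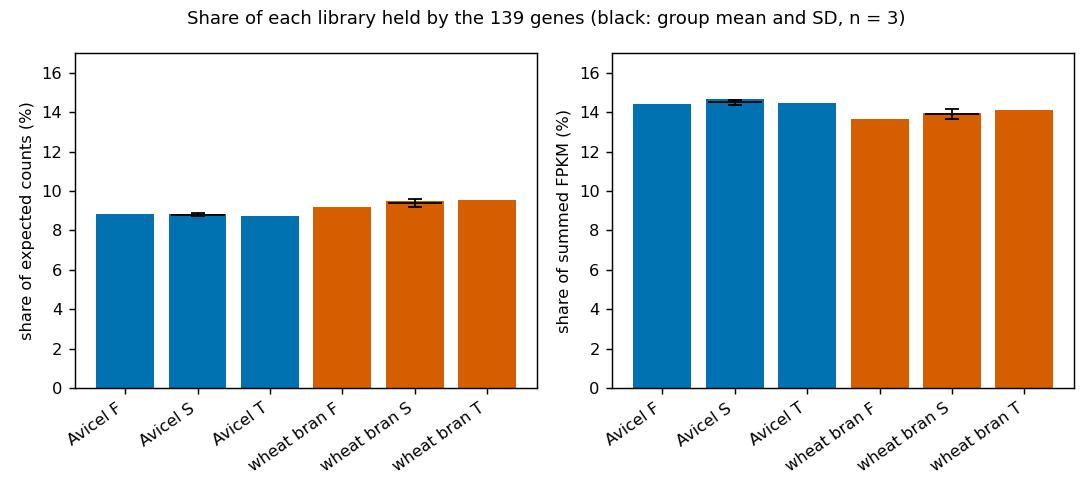
Share of each library held by the 139 genes, as percent of expected counts (left) and of summed FPKM (right); blue bars are libraries labelled Avicel, orange bars libraries labelled wheat bran, and black marks give the group mean and SD (n = 3). By counts the wheat bran bars are higher (9.19% to 9.53% against 8.73% to 8.85%), and by FPKM the Avicel bars are higher (14.4% to 14.7% against 13.7% to 14.1%).

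The counts were concentrated in few members. POX02073 alone took 0.598% of all counts, which is 6.57% of the counts of the members. The 10 members with the most counts held 29.2% of the members' counts, 26 members held 50%, and the 70 with the fewest held 19.1%. Rank by counts was not rank by FPKM. POX00607, second by counts with 0.311% of the libraries, had 1200.4 FPKM on average and an implied length of 2591 bases. POX07865, the longest member, took 0.198% of counts at a mean of only 400.1 FPKM. POX08583, the shortest, had a mean of 1752 FPKM and took 0.0217%.

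The lowest expected count of any member in any library was 821, for POX01307 in replicates F and S labelled wheat bran, with an exact 95% Poisson interval of 766 to 879. The upper bound is 7.08% above the count, and the interval covers counting error only. The highest count was 96577, for POX02073 in replicate T labelled wheat bran. Counts that were not whole numbers (more than 1e-06 from the nearest), which arise when fragments are divided between similar genes, occurred in 2 members, POX03022 and POX03893, and their levels are uncertain to that extent. POX03893 had expected counts of 36462, 46756 and 41612 in replicates F, S and T of the group labelled Avicel and 32333, 36438 and 34772 in the group labelled wheat bran.

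A length is implied for each gene by its expected count divided by its FPKM and by the count total of the library, and it differed between libraries by at most 0.488% for any member. The median implied length of the 139 genes was 538 bases, with quartiles of 345 and 917. It was 741 bases in the other abundant genes and 1224 over the 8670 genes with an FPKM of at least 2 in some library. Under 300 bases lay 20.1% of the members, 7.53% of the other abundant genes and 7.47% of all genes with a length. At 1200 bases or more lay 16.5%, 26.4% and 50.9%.

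The shortest member, POX08583, had an implied length of 124 bases. Its FPKM was 1506, 1548 and 1649 in replicates F, S and T of the group labelled Avicel and 1854, 1752 and 2206 in the group labelled wheat bran, without overlap between the groups. The longest, POX07865, had 4949 bases, far above the next, POX00607. Of the 12 members with a mean of at least 2000 FPKM, 11 were under 600 bases, from 143 bases in POX03083 up, and the exception was POX03893 with 915. FPKM is itself divided by length, so a short gene needs fewer fragments to reach 300 FPKM. Across the 139 genes, which are not replicates and share the same libraries, the Spearman correlation of implied length with mean FPKM was -0.11.

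**Figure D4:**
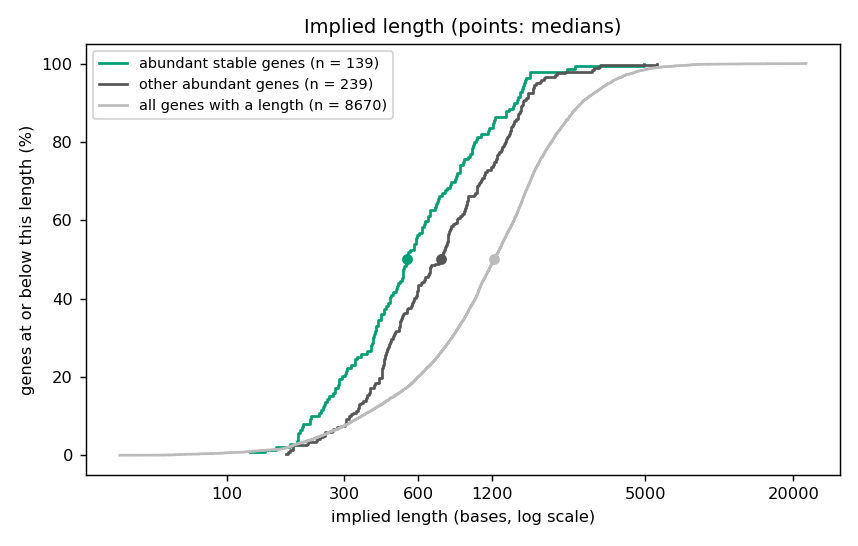
Cumulative share of genes (y axis, percent) by implied length (x axis, bases, log scale) for the 139 abundant stable genes, the 239 other abundant genes and the 8670 genes with a length, with points at the medians. The curve of the abundant stable genes lies to the left, with medians of 538, 741 and 1224 bases in that order.

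Sorted by implied length, 28 of the 46 abundant genes under 300 bases were members (60.9%), 50 of the 134 at 300 to 600 bases (37.3%), 38 of the 112 at 600 to 1200 (33.9%) and 23 of the 86 at 1200 or more (26.7%). The share was highest in the class under 300 bases, as counted without a test. The 28 shortest members took 0.685% ± 0.035 of counts and the 23 longest 3.02% ± 0.12 (SD over 6 libraries). The former are 20.1% of the members with 7.53% of their counts, and the latter are 16.5% with 33.2%. Differences between the groups also went with length in the other abundant genes, where the Spearman correlation of length with the log2 FPKM difference was 0.34. In the members, whose differences are bounded by the rule, it was 0.10.

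The implied lengths fell on a regular scale. For genes above 300 FPKM with more than 500 counts and an implied length under 900 bases, 305 to 355 per library, lengths were spaced in steps of 3.108 bases in the 3 libraries labelled Avicel and 3.121 to 3.123 in the group labelled wheat bran. All of them lay within 0.1 of a step of the scale in 5 libraries, and 323 of 324 in replicate T labelled Avicel. A step of 3 bases, as in gene models made of whole codons, would correspond to a library total 3.59% to 3.61% above the sum of the table's counts in the libraries labelled Avicel and 4.02% to 4.09% in the group labelled wheat bran. The implied lengths are thus on a scale uncertain by at least that amount. In steps of 3 bases, the lengths of these genes also stood 2.49 to 2.51 bases above whole multiples of 3. They may be effective lengths that differ from those of the transcripts, most so in proportion for short genes, which was not tested.

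Along the ID numbers the members were spread widely. They ran from POX00028 to POX09759, with 12 to 17 members in each full block of 1000 numbers and 9 in the last, shorter block, which is 1.08 to 1.70 per 100 IDs. The mean spacing was 70.7 numbers and the median gap 47.5. The widest gap, 373 numbers, lay between POX00234 and POX00607. The other abundant genes numbered 8 to 44 per full block of 1000. The ID order was not paired with genome positions.

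Next to each other stood 6 pairs of members, with no run of 3 or more. Of the 278 places directly before or after a member, 12 (4.32%) were held by a member, while members are 1.41% of all IDs. Abundant genes of either kind held 24 of these places (8.63%) and are 3.84% of all IDs. Of the members, 12 (8.63%) thus had a member at the next number, and 19 without replicate S labelled Avicel, where 150 genes met the rule. Of the 239 other abundant genes, 48 (20.1%) had another of their own kind at the next number, and those genes are 2.43% of all IDs. Genes beside members that were not members themselves, 262 in all, had a median mean FPKM of 32.9, against 23.9 over all genes.

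**Figure D5:**
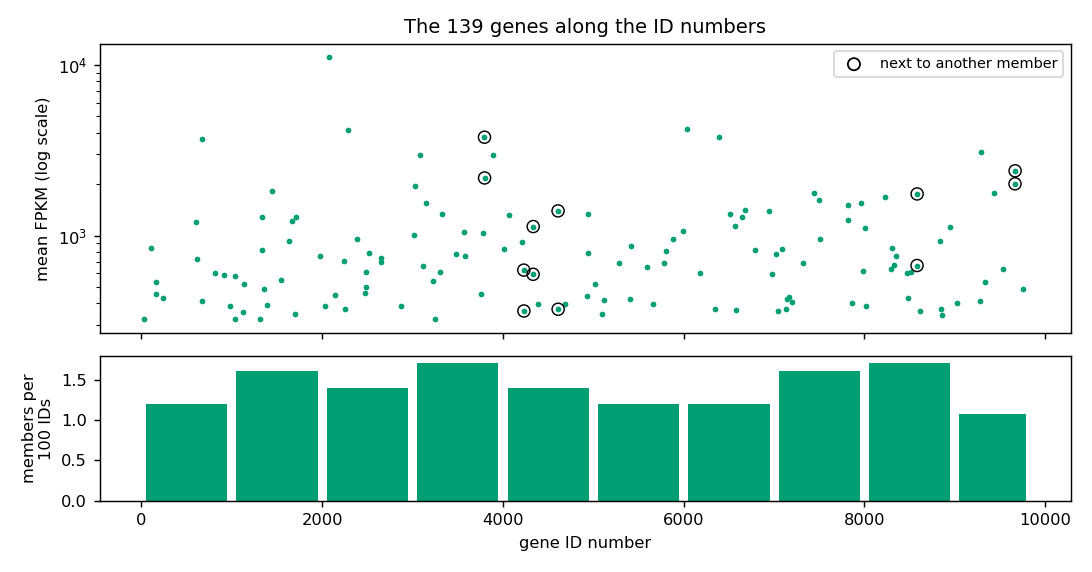
Mean FPKM (top, log scale) of the 139 genes by gene ID number (x axis), with circles around the 12 genes that stand next to another member, and members per 100 IDs in blocks of 1000 numbers (bottom). Members occur in every block, at 1.08 to 1.70 per 100 IDs, and the 6 circled pairs lie between numbers 3796 and 9667.

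The 6 adjacent pairs, picked with their values in view, included 4 of the 12 most abundant members. POX09666 and POX09667 were alike in length (386 and 404 bases) and in level. In replicates F, S and T, POX09666 had 1745, 1936 and 1974 FPKM labelled Avicel and 2163, 1979 and 2254 labelled wheat bran. POX09667 had 2115, 2171 and 2310 FPKM labelled Avicel and 2596, 2467 and 2707 labelled wheat bran. The ratio of the former to the latter stayed between 0.802 and 0.892 over the 6 libraries, and in both genes the groups did not overlap. The gene before them, POX09665, was the one just short of 300 FPKM, with 318, 296 and 311 FPKM labelled Avicel and 395, 395 and 403 labelled wheat bran.

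POX03796 and POX03797 were also short (249 and 270 bases). POX03796 had 3602, 4046 and 3422 FPKM in replicates F, S and T of the group labelled Avicel and 4401, 3184 and 3950 in the group labelled wheat bran. POX03797 had 2122, 2489 and 2105 FPKM labelled Avicel and 2193, 1927 and 2209 labelled wheat bran. Within the Avicel group both were highest in replicate S, and within the wheat bran group both were lowest in replicate S. The neighbours POX06393 and POX06394, a member and the gene just above the limit of 1.5, differed in level. POX06393 had 3349, 3535 and 3684 FPKM labelled Avicel and 4106, 3893 and 4238 labelled wheat bran. POX06394 had 1187, 1288 and 1377 FPKM labelled Avicel and 1606, 1653 and 1782 labelled wheat bran, and in both genes all wheat bran values were above all Avicel values.

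Other neighbours leaned opposite ways. POX04334, with its log2 difference of -0.53, stood beside POX04335, which had 1222, 1187 and 1225 FPKM in replicates F, S and T of the group labelled Avicel and 997, 1070 and 1071 in the group labelled wheat bran (log2 difference 0.21). POX04231 had 586, 541 and 572 FPKM labelled Avicel and 718, 640 and 706 labelled wheat bran (log2 difference -0.28). Its neighbour POX04232 had 428, 420 and 367 FPKM against 312, 318 and 322 (log2 difference 0.35). In each of these 4 genes the groups did not overlap. On FPKM, 1 of the 6 adjacent pairs had both group differences in the same direction. Of the 5 pairs that stood 2 or 3 numbers apart, 4 did. Over all 7793 adjacent pairs of tested genes, 56.3% had the same direction on FPKM, and 51.9% of the 1459 pairs in which both genes had a ratio of at most 1.5. These directions depend on the scale, since TPM raised the median log2 difference of the members by 0.17. Smaller negative differences, such as those of POX03796 (-0.06), POX04610 (-0.13) and POX02651 (-0.06), can change sign with it. The pairs were not counted on TPM.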

How the data were processed

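RNA of 6 mycelium libraries was sequenced, and each deposited table gives 1 library. The submitters' processing notes list RSEM 1.2.12, Bowtie2 2.1.0, DESeq2 and BWA 0.7.10-r789 without saying what each did. Genome build, annotation and strandedness were not given in the sources used here, and overlapping or antisense genes may share fragments. Per the file headers, the tables hold the authors' expected counts, which are not normalized, and FPKM values, which the authors scaled by length and library size. The deposited TPM column of 1 library was not used. Depth was 13176152 to 14598919 counts per library.

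Genes were selected from FPKM as deposited. The members and the gene sets compared were chosen with earlier results of these data known. Named genes are the members at the extremes of level, ratio and length, and the nearest genes outside each limit; all others named were chosen after their values were seen. After rounding expected counts to whole numbers, all genes were fitted with edgeR 4.0.16 (R 4.3.3), using filterByExpr, TMM and the two-sided quasi-likelihood F-test with a Benjamini-Hochberg threshold of 0.05. The filter kept 8636 genes. On simulated data of 8594 genes for this comparison, this step recovered 35.8% of 67 changes of 1.5-fold, 86.6% of 67 of 2-fold and 100% of 66 of 4-fold. Of its 165 calls, 17 were false. The simulation changed only these genes, far fewer than the 4746 called in the data, so the recovered shares may not carry over. Alternatives used DESeq2 1.42.0, limma 3.58.1 on log2(FPKM + pseudocount), other scalings, filters and limits, a block on the letters F, S and T, and each library left out. Lengths were taken from libraries with an FPKM of at least 2. None of the 9834 IDs matched the 9964 RefSeq entries of assembly ASM172317v3 by identifier.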

Additional observations from a re-analysis of the deposited data

How the results depend on the processing

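The number of genes that met the rule was 139. It was 244 with a lowest FPKM of 200, 87 with 500, 54 with a stricter ratio limit and 272 with a ratio of up to 2. On 5 libraries, leaving out each in turn, it was 143 to 174, with the most without replicate F labelled Avicel. Leaving out a library can only add genes by construction. Rescaled to TPM 156 genes met it, 117 of them among the 139, and rescaled by TMM 134, of which 133 were shared. Their mean share of counts was 9.10%, against 11.6%, 7.29%, 3.35% and 19.3% under the limits in the same order, and 9.59% to 14.5% on 5 libraries. The same 139 genes held 14.2% of summed TPM, a share per length and not of counts. The median implied length was 538 bases, against 629, 519.6, 532 and 557 under those limits, 537.1 and 539.7 from the lowest and highest library, and 537 to 592 on 5 libraries. Members beside a member numbered 12, against 17, 6, 2 and 35 under those limits, 22 within 3 ID numbers, and 12 to 19 on 5 libraries, with the most without replicate S labelled Avicel.

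The count of 4746 calls over the table stayed within 1.5 times that count in all 17 other settings. On 5 libraries 3911 to 4997 genes passed. The 50 calls among the members became 19 at an adjusted p under 0.01, where 3251 of all 8636 tested genes were called. By DESeq2 they were 59, with 4565 over the table. On 5 libraries they were 30 to 44. The fewest came without replicate S labelled Avicel, where 4049 of 8698 tested genes were called. With the letters as a replicate block, 4602 genes and 39 members were called. The deviations from the group means of libraries with the same letter had correlations of 0.17 (F), -0.08 (S) and 0.19 (T). Libraries with different letters had correlations of -0.26 to 0.16. Whether a letter links libraries across the groups is not settled by these values and was not tested. Of 128 fold changes of the 8 named genes under 16 alternatives, 123 stayed within 1 SD, 5 moved further and no called one changed sign. Scaling to the members' summed counts raised the median log2 fold change of all tested genes from 0.01 to 0.10 (2797 higher and 1938 lower), by construction. The lowest expected count of any member was 821, and whether counting error moved genes across the limits was not tested. The cause of the other shifts was not tested.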
